A study of Rattus norvegicus with 232 samples.

Results

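Adrenergic receptors are the G protein-coupled receptors through which noradrenaline and adrenaline act on cells. In the brain noradrenaline comes mainly from neurons of the locus coeruleus, whose fibres reach almost every region. The α1 receptors (Adra1a, Adra1b, Adra1d) couple to Gq and phospholipase C, the α2 receptors (Adra2a, Adra2b, Adra2c) couple to Gi and lower cyclic AMP, and β1 (Adrb1) couples to Gs and raises it. Adra2a and Adra2c also act as autoreceptors that hold back noradrenaline release, and central α2 receptors are the target of clonidine, a drug that lowers blood pressure. The 7 receptor genes named here were taken by symbol from the RefSeq gene table, which held 20859 genes, and all 7 were present. They were chosen by name, with earlier results of these data known.

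The data were total RNA sequencing of whole brain from untreated rats of the Hybrid Rat Diversity Panel, a set of inbred strains. The RefSeq gene table held 214 of the 232 samples, which came from 197 animals of 74 strains: 25 classic inbred strains, 30 strains of the HXB/BXH recombinant family (progenitors BN-Lx/Cub and SHR/OlaIpcv) and 19 strains of the FXLE/LEXF family (progenitors F344/Stm and LE/Stm). A recombinant inbred strain carries a fixed mosaic of its 2 progenitors' genomes, so an inherited difference between the progenitors is dealt out among the strains. Most strains had 3 animals, 15 had 2 and 5 had 1. The rats were untreated, 148 samples were labelled male and the labels of the other 84 gave no sex; the study's methods describe young adult males and the sequencing of one side of the brain. Among the classic strains, SHR/OlaIpcv, SHRSP/A3NCrl, LH/MavRrrc, FHH/EurMcwi, SS/JrHsd and MWF/Hsd are known hypertensive strains, a class taken from general knowledge and not from the labels, and the other 19 were the comparison. Blood pressure was not measured in these animals.

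Values were on the log2 scale as deposited, 1 unit being a 2-fold difference, and the files carried no counts, so the depth behind each value is unknown. Library medians over all genes lay between 8.18 and 8.42. The markers of neurons Snap25, Syt1, Rbfox3 and Stmn2 stood between the 91.8 and 99.8 percentiles of all genes. Several libraries stood apart: the only LE/Stm animal had a liver marker level of 17.9 against a median of 9.25 over strains, and libraries of F344/NCrl, SHRSP/A3NCrl and LEW/Crl were doubtful in earlier results of these data, so the main comparisons were also run without these 4 strains. Batch means of the deposited values were almost level, with batch accounting for a median R2 of 0.00753 against 0.0751 expected from chance alone, and any strain difference that ran along batches was reduced with them.

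Promoter sequences were taken from RefSeq on GRCr8 for 6 of the 7 genes, each 250 bases before to 50 after the start. All 6 were rich in G and C, from 65.7% for Adra1d to 79% for Adra2c, against a median of 51.67% over 33469 promoters. Only 1.2% of all promoters had a G and C share as high as that of Adra2c. Shown are Adra2c and Adrb1, whose strain means followed each other most closely, and Adra2b, which had the lowest R2 over strains. Capitals mark CG dinucleotides, of which these windows held 43, 28 and 28 against a median of 7.
Adra2c, chr14:79697427-79697726, minus strand: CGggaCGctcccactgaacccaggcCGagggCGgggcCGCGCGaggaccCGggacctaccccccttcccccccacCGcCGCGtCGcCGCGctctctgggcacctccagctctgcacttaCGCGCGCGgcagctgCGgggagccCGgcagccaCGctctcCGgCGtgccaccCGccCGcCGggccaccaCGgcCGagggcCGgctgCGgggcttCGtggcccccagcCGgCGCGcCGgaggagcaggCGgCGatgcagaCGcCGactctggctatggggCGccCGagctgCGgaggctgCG
Adrb1, chr1:265776853-265777152, plus strand: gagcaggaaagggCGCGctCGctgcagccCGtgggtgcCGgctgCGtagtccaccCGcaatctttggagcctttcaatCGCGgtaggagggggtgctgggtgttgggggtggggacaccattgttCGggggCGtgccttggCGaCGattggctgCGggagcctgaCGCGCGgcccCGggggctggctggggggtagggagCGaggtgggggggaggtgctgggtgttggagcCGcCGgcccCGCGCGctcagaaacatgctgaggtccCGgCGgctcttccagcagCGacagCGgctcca
Adra2b, chr3:135038231-135038530, plus strand: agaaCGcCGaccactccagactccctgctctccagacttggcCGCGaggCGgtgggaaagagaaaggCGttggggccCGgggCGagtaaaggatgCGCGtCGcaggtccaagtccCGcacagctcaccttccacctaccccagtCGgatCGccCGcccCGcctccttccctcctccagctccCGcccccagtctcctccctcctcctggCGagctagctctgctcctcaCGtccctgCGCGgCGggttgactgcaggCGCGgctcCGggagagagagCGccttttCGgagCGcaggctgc
The windows were then searched on both strands. The letters GGGCGG, the core of a GC box, were found in Adra1b, Adra2b and Adra2c and in 33.1% of all promoters. The cyclic AMP response element TGACGTCA, which 1.83% of promoters held, and the letters TATAAA, which 14.2% held, were in none of the 6 windows. That says only that these letters are not in these windows.

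Adra1a, whose receptor raises neuronal excitability through Gq, had the highest value of the family, with strain means from 9.93 in LE/Stm through a median of 10.23 to 10.53 in BUF/MnaMcwi. The other α1 genes were lower: Adra1d ran from 8.37 in HXB10/Ipcv through 8.71 to 9.11 in LEXF5/Stm, and Adra1b from 7.65 in BUF/MnaMcwi through 8.03 to 8.35 in HXB17/Ipcv. These values are not divided by length, so their order is not an order of abundance.

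Of the α2 genes, Adra2a ran from 8.26 in FXLE13/Stm through 8.55 to 8.80 in LEXF2B/Stm. Adra2c ran from 7.97 in LH/MavRrrc through 8.35 to 8.96 in LEXF5/Stm, and Adra2b from 6.35 in LEXF7B/Stm through 6.56 to 6.94 in LEXF9/Stm. Adrb1 had the lowest values and the widest range, from 4.98 in LEXF10A/Stm through 5.47 to 6.25 in LEXF5/Stm, a 2.42-fold span.

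Lengths could be set beside levels for the 4 genes without introns. Per kilobase of RefSeq gene length, the mean log2 level was 7.43 for Adra2c, 7.06 for Adra2a, 4.55 for Adra2b and 3.90 for Adrb1. Adra2c and Adra2a, the α2 subtypes known from neurons, lay above Adra2b, which is known mainly from the thalamus and blood vessels, and above Adrb1 in this table. The place of Adrb1 depended on the gene model: in the Ensembl genes of version 6, not divided by length, its mean log2 level was 8.24, beside 8.41 for Adra2c and 6.64 for Adra2b. Adra2c and Adra2a differed by less than their ranges over strains.

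**Figure D1:**
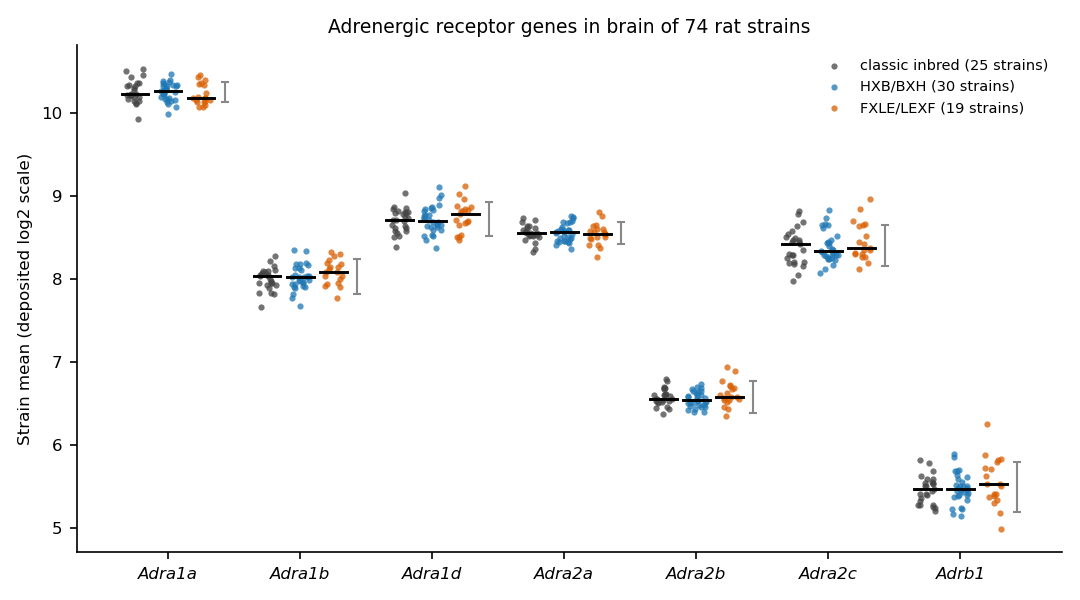
Each point is the mean of 1 strain for a receptor gene, on the deposited log2 scale (vertical axis), coloured by panel: 25 classic inbred, 30 HXB/BXH and 19 FXLE/LEXF strains. Black bars are panel medians and grey bars show the within-strain SD either side of the mean; for every gene the panels overlap, and Adrb1 spans the widest range, from 4.98 to 6.25.

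Spread between animals of 1 strain differed among the genes and limits what can be said of each. The within-strain SD was smallest for Adra1a (0.123) and Adra2a (0.133), larger for Adra2b (0.194), Adra1d (0.208) and Adra1b (0.212), and largest for Adra2c (0.247) and Adrb1 (0.301). Repeat libraries of 1 animal show technical spread, but the animals sequenced repeatedly differed in it, so the technical share is not known. A single SHR/OlaIpcv animal was sequenced in 12 libraries as a control, and in those Adrb1 ran from 4.60 through 5.16 to 5.77 (SD 0.379, n = 12). Adra2c ran from 7.34 through 8.28 to 8.74 in the same libraries (SD 0.364, n = 12). For all 7 receptors the SD over these repeats was larger than the within-strain SD, at 0.195 for Adra1a, 0.295 for Adra1b and 0.272 for Adra1d. In the 6 libraries of another SHR/OlaIpcv animal the SDs were 0.0464 for Adra1a, 0.287 for Adrb1 and 0.173 for Adra2c. In that animal the SD lay below the within-strain SD for every receptor except Adra2a (0.145 against 0.133).

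Broad-sense heritability was taken as R2, the share of the sum of squares over animals that lies between strains. Genes with no strain effect would have an expected R2 of 0.372 with this number of strains and independent animals, and the median of all genes was 0.451. The levelling of batches is not allowed for in that value. The receptors' median was 0.483. By limma's F-test with Benjamini-Hochberg adjustment over all genes, 4 of the 7 receptors had a strain effect, where 37.3% of all genes did. They were Adra1a (R2 0.574, adjusted p = 0.000245), Adra2c (0.510, adjusted p = 0.00823), Adra1d (0.483, adjusted p = 0.0302) and Adra2a (0.487, adjusted p = 0.0333). Adrb1 (0.415, adjusted p = 0.231), Adra1b (0.406, adjusted p = 0.288) and Adra2b (0.330, adjusted p = 0.804) did not pass. The R2 of Adra2b was among the lowest of the transcriptome, at the 1.94 percentile, and that of Adra1a was at the 86.9 percentile. With replicate number 1, 2 or 3 left out of every strain, 1, 0 and 2 receptors were called in these fits with fewer animals, where 15.9%, 14.4% and 29.1% of all genes were. With batch as a covariate over the 214 libraries, several of which are repeats of 1 animal, 6 receptors were called, where 72.9% of all genes were, and Adra1b (adjusted p = 0.0299) and Adrb1 (adjusted p = 0.0432) passed as well (limma). With batch and only the first library of each of the 197 animals 4 were called, where 55.6% of all genes were, and Adra1b (adjusted p = 0.0978) and Adrb1 (adjusted p = 0.111) did not pass. In the Ensembl genes of version 6 only Adra1d passed (adjusted p = 0.0334), where 32.3% of all genes did, and Adra1a had an R2 of 0.374 (adjusted p = 0.380). For the most abundant of the RefSeq transcripts matched to each receptor by accession, 0 of 7 passed over all strains, where 13.9% of all transcripts did. The limma adjusted p ran from 0.0579 for Adra1a upwards. That transcript of Adra1a had a mean of 9.00, against 10.25 for the gene, and followed the gene with rho 0.47 over 74 strain means.

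**Figure D2:**
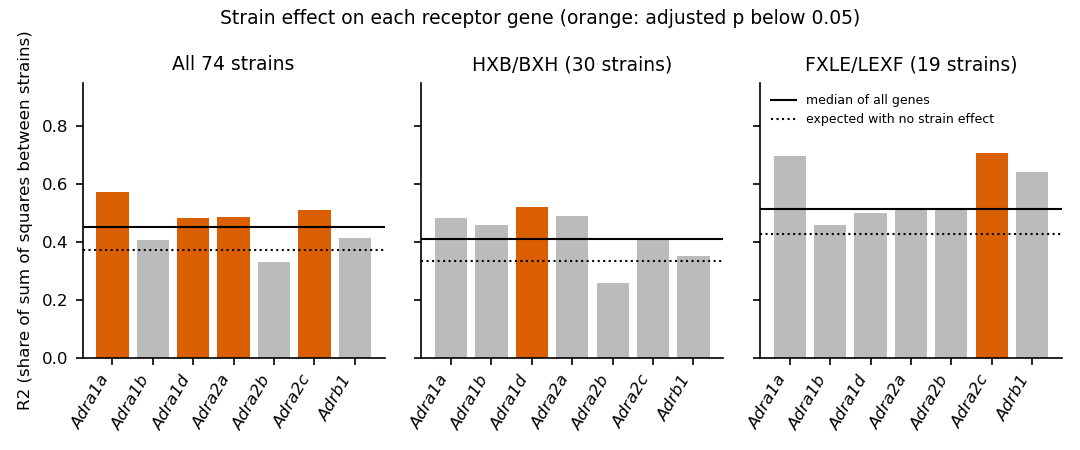
Bars give R2, the share of the sum of squares between strains, for each receptor gene over all 74 strains and within each recombinant family; orange bars passed the adjusted p threshold of 0.05. The solid line is the median of all genes and the dotted line the value expected with no strain effect and independent animals. Adra1a, Adra1d, Adra2a and Adra2c pass over all strains, Adra1d in HXB/BXH and Adra2c in FXLE/LEXF.

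The strains at the ends of each distribution differed between genes. LEXF5/Stm was the highest strain for Adra1d, Adra2c and Adrb1. Its 2 animals read 6.19 and 6.32 for Adrb1 and 8.82 and 9.10 for Adra2c, so both stood at the upper end. The astrocyte and blood marker lists were at their lowest in this strain (13.18 and 11.72), its cortical list was at 11.69 (median of strains 11.49, highest 11.70) and its striatal list at 10.68 (median 10.49). Their part in the result was not tested. LEXF10A/Stm, the lowest strain for Adrb1, read 5.09, 5.01 and 4.83 in its 3 animals. BN-Lx/Cub, a progenitor, was the lowest for Adra2a among strains with at least 2 animals (8.32) and second lowest for Adra1d (8.37). Its 3 animals disagreed, however: Adra1d read 7.93, 8.71 and 8.48. On the main axis of variation among animals, described below with the receptors that followed it, BN-Lx/Cub scored -1.13, LEXF10A/Stm -0.715 and LEXF5/Stm 0.728, the first and second being the lowest of the 74 strains; its part in these extremes was not tested.

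HXB/BXH is a cross of a hypertensive strain and a normotensive strain. Within its 30 strains (88 animals) only Adra1d passed the F-test (R2 0.521, adjusted p = 0.0247, limma), 1 of 7 receptors against 19.1% of all genes. Its strain means ran from 8.37 in HXB10/Ipcv through 8.70 to 9.10 in BXH13/Cub. The animals of these strains, picked as the extremes, read 8.35 and 8.39 in HXB10/Ipcv and 9.20, 9.07 and 9.04 in BXH13/Cub. Adra2a (R2 0.490, adjusted p = 0.0765) and Adra1a (0.485, adjusted p = 0.0877) did not pass. The call of Adra1d was lost whichever replicate number was left out, with adjusted p between 0.0888 and 0.24, in fits with fewer animals where only 8.04% to 9.31% of all genes were called. With batch as a covariate 4 receptors passed in this family: Adra1a, Adra1b, Adra1d and Adra2c, where 32.1% of all genes did.

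The progenitors of HXB/BXH did not differ in any of the 7 genes, where 4.51% of all genes did. Adra1d was 0.266 lower in BN-Lx/Cub (mean 8.37, n = 3) than in SHR/OlaIpcv (8.64, n = 2), with a 95% interval from -0.638 to 0.105 and limma adjusted p = 0.46. Without BN-Lx/Cub replicate 1, at 7.93, the difference was -0.0464. In 19 of the 30 recombinant strains Adra1d lay above both progenitors. Adra2c read 8.08, 8.30 and 8.17 in BN-Lx/Cub and 8.23 and 8.17 in SHR/OlaIpcv, and 27 of the 30 recombinant strains lay above both. Its progenitor means, 8.18 and 8.20, were so close that few strains could lie between them. The progenitors' values thus did not bracket the family for either gene. Most strains also lay above both progenitors for Adrb1 (25 of 30), Adra1b (21), Adra1a (20) and Adra2a (18), but not for Adra2b (9). How common this is among all genes was not counted.

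Adra2c gave another picture when its level was taken over the gene as reconstructed by the authors from these reads rather than over the RefSeq gene. On that feature BN-Lx/Cub animals read 8.62, 9.27 and 8.83, and SHR/OlaIpcv animals 8.56, 8.07, 7.72 and 8.37. The groups differed by 0.72 (adjusted p = 0.0485, limma over all reconstructed genes), where 2.23% of reconstructed genes were called. Their animals did not overlap, and how many genes separate these animals was not counted. In the HXB/BXH strains the reconstructed Adra2c ran from 8.35 in HXB10/Ipcv through 8.84 to 9.48 in HXB13/Ipcv (R2 0.609, adjusted p = 0.00203, limma), and in 1 cluster. In this family 12.7% of reconstructed genes were called. On this feature too, 13 of the 30 strains lay above both progenitor means (8.90 in BN-Lx/Cub and 8.18 in SHR/OlaIpcv) and 0 below both. Strain means of both versions of the gene correlated over 74 strains with Spearman's rho 0.64, from the same libraries. The reconstructed table held SHR/OlaIpcv animals 2 and 3, which the RefSeq table did not; animals 1 and 4, which both tables held, read 8.56 and 8.37 on the reconstructed feature, below all 3 BN-Lx/Cub animals.

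FXLE/LEXF, the other family, had 19 strains and 43 animals. Adra2c was its only receptor past the threshold (R2 0.708, adjusted p = 0.0364, limma), 1 of 7 against 4.61% of all genes. Strain means ran from 8.12 in FXLE13/Stm through 8.37 to 8.96 in LEXF5/Stm. Without LEXF5/Stm the adjusted p was 0.117, where 4.51% of all genes were called. Without replicate 1 or 2 it was 0.523 and 0.787, in fits that called 0.599% and 0.288% of all genes. In the reconstructed genes Adra2c did not pass in this family (R2 0.661, adjusted p = 0.338). Adrb1 (R2 0.642, adjusted p = 0.0986) and Adra1a (R2 0.696, adjusted p = 0.102) did not pass.

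A mixture of normal distributions of equal variance was also fitted to the strain means of this family by BIC. It gave 2 clusters for Adra1a, 1 of 7 receptors, in a family where 14.7% of all genes had more than 1. The receptors' share was thus close to that of all genes. The lower cluster held 13 strains from 10.07 to 10.24 and the higher cluster 6 strains from 10.33 to 10.45, a mean difference of 0.24 or 1.18-fold. The gap of 0.092 between the clusters was smaller than the within-strain SD of 0.104 in this family. The BIC gain over 1 cluster was 6.41, and 2 clusters were found again in 19 of 19 fits that left out 1 strain. Those fits share nearly all their values and are not separate evidence. The other 6 receptors had 1 cluster in this family. In HXB/BXH the fit gave Adra2c 2 clusters with a gain of only 0.90, and 1 cluster to the other 6, where 11.7% of all genes had more than 1.

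The separation was wider in the reconstructed version of Adra1a, taken as the most abundant of its features. There 11 strains lay between 9.90 and 10.27 and 8 between 10.49 and 10.72, with no strain in the gap and a mean difference of 0.55, or 1.46-fold. R2 was 0.934 (adjusted p = 0.000101, limma), where 1.61% of reconstructed genes passed, and the BIC gain was 13.2. The share of reconstructed genes with more than 1 cluster was not counted. Of the 28 animals in the lower strains, 27 read below every one of the 17 animals in the higher strains, a description only, since the clusters were made from these animals' values. Both tables put 17 of the 19 strains in the same cluster, LEXF1C/Stm and FXLE15/Stm being lower in the RefSeq table and higher in the reconstructed one. Since both tables were made from largely the same libraries, they are not separate measurements.

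In the RefSeq gene and the main reconstructed feature the progenitors differed in the same sense. On that feature F344/Stm animals read 10.39, 10.53 and 10.42 and the LE/Stm animal 9.81. On the RefSeq gene F344/Stm animals read 10.31, 10.30 and 10.26 and the LE/Stm animal 9.93, the lowest strain value of all 74. The F344/Stm mean lay in the gap between clusters, at 10.29 on the RefSeq gene and 10.45 on the reconstructed feature. On the RefSeq gene 6 of the 19 strains, those of the higher cluster, lay above both progenitors, and 13 lay between them. The RefSeq difference was 0.367 (95% interval 0.0832 to 0.65, limma adjusted p = 0.379), and none of the 7 receptors passed between these progenitors, where 0.796% of genes did. LE/Stm was represented by 1 animal, the one with the high liver markers noted above, so the direction of this difference rests on that library. Whether it is as labelled, or free of other tissue, is in doubt and was not tested. In the Ensembl genes of version 5, which held LE/Stm animals 1 and 3 and not that one, the sign was the opposite: Adra1a read 8.06 and 8.17 in LE/Stm and 7.86, 7.83 and 7.92 in F344/Stm, a difference of -0.24 (limma adjusted p = 0.505). Version 5 used another gene model, and the part of the liver transcripts in the RefSeq difference was not tested. The 19 strains of the family do not include that animal.

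**Figure D3:**
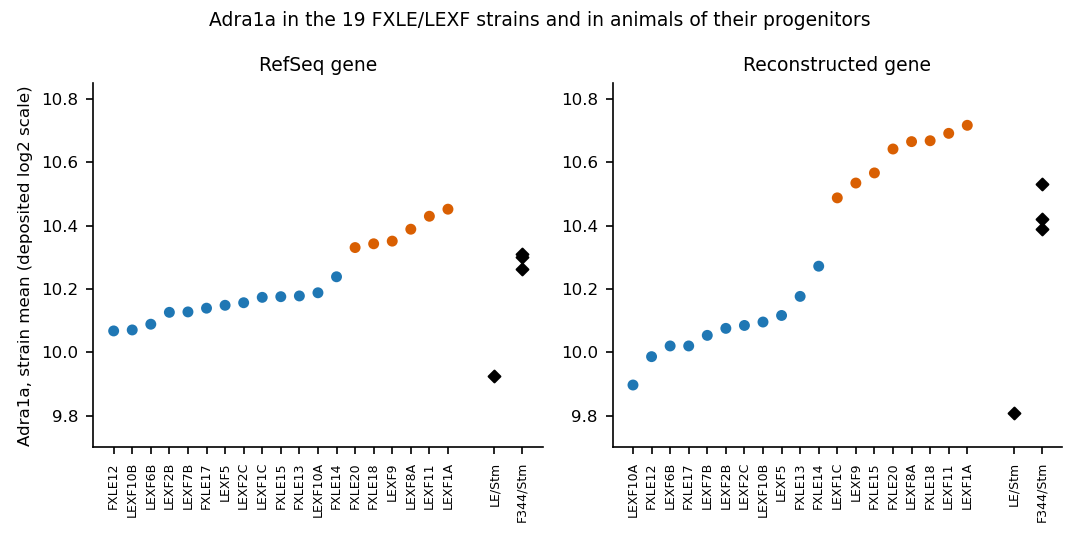
Adra1a in the 19 FXLE/LEXF strains, ordered by strain mean (dots; blue lower cluster, orange higher cluster), with single animals of the progenitors LE/Stm and F344/Stm (black diamonds), for the RefSeq gene (left) and the reconstructed gene (right) on the deposited log2 scale. The gap between clusters runs from 10.24 to 10.33 on the left and from 10.27 to 10.49 on the right. In both panels LE/Stm lies below the gap and the mean of F344/Stm lies within it (10.29 and 10.45).

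Adra1a lies on chromosome 15 of rn6, chr15:43258304-43477254 on the plus strand in the authors' version 5 reconstruction, which gave it 21 transcripts. Among its 79 measured neighbours within 5 Mb, Pnma2 followed it most closely in FXLE/LEXF, with a Spearman's rho of 0.85 over the 19 strain means at a distance of 224 kb between gene centres. It was also the closest of all 20858 other genes in that family, against a median absolute rho of 0.15. Pnma2, a paraneoplastic Ma antigen family member, ran only from 10.84 through 10.97 to 11.05 in these strains and had no strain effect past the threshold (R2 0.690, adjusted p = 0.40, limma). The look within this family was added after the values were seen. Over all 74 strains the highest values were -0.41 for R3hcc1, 0.39 for Pnma2 and -0.39 for Stmn4. The points of these correlations share libraries and depth.

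The reconstruction split some receptors into several features, and they did not all behave alike. Taking the most abundant feature of each receptor, 3 of 7 passed over all strains (Adra1a, Adra1d and Adra2c), where 20.2% of reconstructed genes did. Adra1a had 12 features, and apart from the main one only 1 passed in FXLE/LEXF (mean level 7.29, R2 0.740, adjusted p = 0.0261). Its difference F344/Stm minus LE/Stm was -1.32 (adjusted p = 0.463, limma), opposite in sign to the 0.64 of the main feature (adjusted p = 0.389), both with the 1 doubtful LE/Stm library. Adrb1 had 8 features, of which the most abundant passed in FXLE/LEXF (mean level 6.46, R2 0.754, adjusted p = 0.0204) although the RefSeq gene did not. A minor Adrb1 feature passed in HXB/BXH (mean level 3.93, R2 0.525, adjusted p = 0.036). Adra2a had 2 features, and neither had a strain effect over all strains (adjusted p = 0.482 and 0.723), unlike the RefSeq gene. Adra1d was called in both tables, with a reconstructed R2 of 0.508 over all strains and 0.589 in HXB/BXH (adjusted p = 0.0205 and 0.0091).

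The hypertensive strains were compared with the other classic strains because noradrenergic signalling is a long-studied part of blood pressure control. No receptor passed, and nor did any of the 20859 genes (limma on strain means, smallest adjusted p 0.286; percent called 0). At an unadjusted p under 0.05, 7.76% of all genes differed. In 5 of 7 receptors the hypertensive mean was lower, against 50.4% of all genes, and the median difference was -0.051 for the receptors and -0.00065 for all genes.

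Adra2c had the largest difference of the 7. Its strain means were 7.97 in LH/MavRrrc, 8.15 in SHRSP/A3NCrl, 8.17 in MWF/Hsd, 8.20 in SHR/OlaIpcv, 8.29 in FHH/EurMcwi and 8.49 in SS/JrHsd. The other 19 strains ran from 8.05 in BUF/MnaMcwi through 8.44 to 8.81 in SR/JrHsd. Of the 6 hypertensive strains 5 lay below that median, and the groups overlapped. The difference of -0.226 (SE 0.0887, 95% interval -0.408 to -0.0437) had an exact two-sided permutation p of 0.0235 over 177100 assignments of strains, and an adjusted p of 0.614 over all genes (limma). At an unadjusted p, 4.3% of genes were lower in hypertensive strains.

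The exact p of Adra2c moved from 0.00765 to 0.191 over the alternatives. It was 0.0834 without LH/MavRrrc, 0.0865 without the 4 strains with doubtful libraries, 0.126 without replicate 1 of every strain and 0.191 with strain means adjusted for batch, with differences of -0.178, -0.194, -0.154 and -0.201. Larger differences came without SS/JrHsd (-0.282, exact p = 0.00765), without SS/JrHsd and MWF/Hsd (-0.286, exact p = 0.0147), without replicate 3 (-0.300, exact p = 0.0169) and in the reconstructed genes (-0.306, exact p = 0.0407). With the main axis of variation among animals as a covariate it was -0.161 (unadjusted p = 0.0322, adjusted p = 0.571, limma). Regional marker lists also differed between these groups. All 6 striatal markers were lower in the hypertensive strains, 1 of them at an unadjusted p under 0.05, and the striatal list had a median of 10.42 (range 10.11 to 10.57) against 10.49 (10.24 to 10.76) in the others. All 6 thalamic markers were higher, 3 of them at an unadjusted p under 0.05, with list medians of 10.78 (10.67 to 10.83) and 10.67 (10.49 to 10.81). Such shifts were not particular to these lists. All measured olfactory bulb, locus coeruleus, blood, pituitary and meningeal markers were higher in hypertensive strains, and all liver markers were lower. The comparison strains include the doubtful LE/Stm library, with a liver list at 17.9, and the medians of the liver list were nearly equal (9.22 and 9.23). Adra2c, which is known from the striatum, followed the striatal list with rho 0.45 and the thalamic list with rho -0.48 over 74 strain means. Of all genes, 14.4% passed an absolute rho of 0.5 with Adra2c. In bulk tissue fewer cells of a type and less RNA per cell cannot be told apart, and the part of the dissected regions in the difference was not tested.

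**Figure D4:**
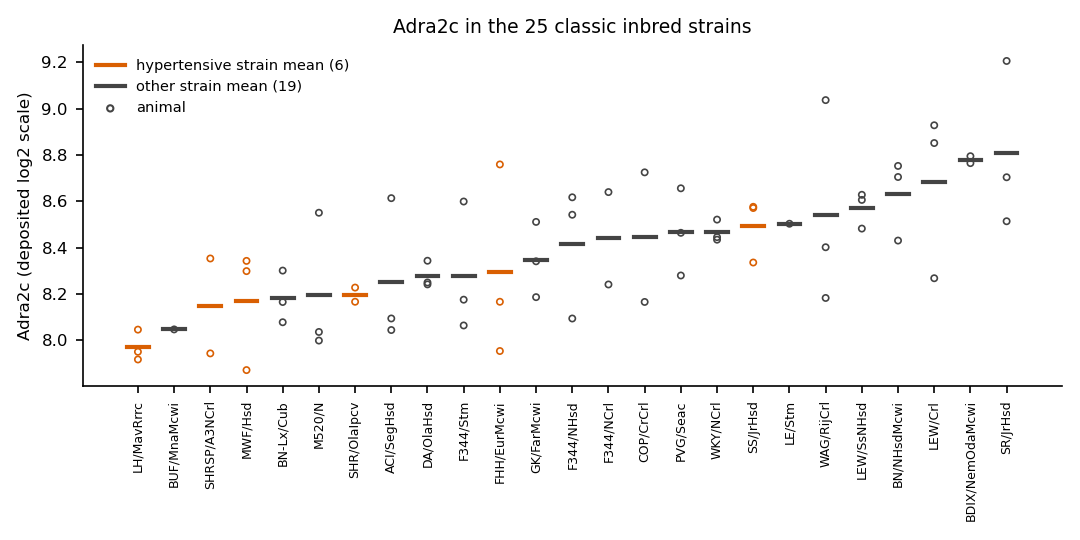
Adra2c in the 25 classic inbred strains, ordered by strain mean (bars), on the deposited log2 scale; circles are animals, orange marks the 6 hypertensive strains and grey the other 19. The hypertensive strains lie between 7.97 and 8.49, 5 of the 6 below the others' median of 8.44; LH/MavRrrc lies below all 19 others, the lowest of which is at 8.05, and the other 5 lie within their range.

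The other receptors differed by at most 0.101 between these groups. Adrb1 had a mean of 5.38 in hypertensive strains and 5.48 in the others (difference -0.101, 95% interval -0.254 to 0.0514, exact permutation p = 0.202). Adra2a, the main autoreceptor and the α2 subtype through which clonidine lowers blood pressure, was 0.0756 higher (95% interval -0.014 to 0.165, exact permutation p = 0.0873). Its hypertensive strains ran from 8.51 to 8.73 and the others from 8.32 through 8.53 to 8.71. Adra1a, Adra1b, Adra1d and Adra2b differed by -0.0515, -0.0265, -0.0567 and 0.00518, with exact permutation p between 0.409 and 0.918.

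Of the 6 hypertensive strains 3 were also set against a usual control strain, and LH/MavRrrc, FHH/EurMcwi and MWF/Hsd were not. None of the receptors passed in SHR/OlaIpcv against WKY/NCrl (0.825% of genes called), SHRSP/A3NCrl against WKY/NCrl (0.805%) or SS/JrHsd against SR/JrHsd (0.988%). The first and second of these share the WKY/NCrl animals. WKY/NCrl read 8.43, 8.52 and 8.45 for Adra2c, SHR/OlaIpcv 8.23 and 8.17, and SHRSP/A3NCrl 8.35 and 7.94. Animals of neither hypertensive strain overlapped those of the control, at 2 against 3 animals. How many of all genes separate such small groups was not counted. The SHR/OlaIpcv values are means of 12 and 6 libraries, and single libraries of the animal with 12 ran from 7.34 to 8.74. SS/JrHsd read 8.57, 8.34 and 8.58 and SR/JrHsd 9.21, 8.70 and 8.51, which overlapped. The differences of Adra2c were -0.27, -0.32 and -0.31, each with a 95% interval that included 0 and limma adjusted p from 0.693 to 0.844. Single animals moved them: SHRSP/A3NCrl against WKY/NCrl was -0.523 without SHRSP/A3NCrl replicate 2 and -0.114 without replicate 3, and SS/JrHsd against SR/JrHsd was -0.115 without SR/JrHsd replicate 1. With batch as a covariate SHR/OlaIpcv against WKY/NCrl was -0.445. These pairs held strains at the ends of the regional marker lists: SHRSP/A3NCrl had the lowest striatal list of the 74 strains (10.11), and SR/JrHsd the highest striatal (10.76) and cortical (11.70) and the lowest thalamic (10.49) and olfactory bulb (5.80) lists. Their part in the differences was not tested.

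Adrb1 had differences of -0.33, -0.31 and -0.31 in the same order, also with intervals that included 0. In SHRSP/A3NCrl its 2 animals read 5.66 and 4.88 against 5.47, 5.80 and 5.47 in WKY/NCrl, and without the animal at 4.88 the difference was 0.08. Without the animal at 5.66 it was -0.697, and without WKY/NCrl replicate 2 it was -0.198. SHR/OlaIpcv against WKY/NCrl was -0.217 without that WKY/NCrl animal and -0.494 with batch. SS/JrHsd against SR/JrHsd was -0.0818 without SR/JrHsd replicate 1, -0.129 without SS/JrHsd replicate 2 and -0.485 without SS/JrHsd replicate 1. For Adra2a SHRSP/A3NCrl animals read 8.73 and 8.73 and WKY/NCrl animals 8.46, 8.47 and 8.37. The difference between their means was 0.296 (95% interval 0.0553 to 0.537, unadjusted p = 0.0163, adjusted p = 0.453, limma). The SHRSP/A3NCrl libraries are among the doubtful ones.

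Adra1b, Adra1d, Adra2c and Adrb1 went together. Over 74 strain means Spearman's rho was 0.69 between Adra2c and Adrb1, 0.66 between Adra1b and Adrb1, 0.59 between Adra1d and Adra2c and 0.58 between Adra1d and Adrb1. Among animals of 1 strain, as deviations from the strain mean in 197 animals, the same pairs had 0.66, 0.61, 0.64 and 0.54. The pairs thus went together among animals of equal genotype as well as between strains. The remaining pairs of these 4 had 0.53 (Adra1b and Adra1d) and 0.55 (Adra1b and Adra2c). Adra2a and Adra2b had values nearly as high with some receptors, 0.53 between Adra1d and Adra2a and 0.51 between Adra1b and Adra2b, and lower ones with others, down to 0.16 between Adra1d and Adra2b. Adra1a had no rho above 0.16 with any other receptor over strain means. All values of a strain come from the same libraries.

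A measure of the main axis of variation among animals of 1 strain ran alongside. The first principal component of the deviations from strain means took up 24.1% of the variance, and its score, averaged by strain, had rho 0.73 with Adra1b, 0.70 with Adra2c, 0.69 with Adra1d, 0.59 with Adrb1, 0.51 with Adra2a, 0.40 with Adra2b and -0.04 with Adra1a. Its part in the strain effects was not tested beyond adding it as a covariate, after which 4 receptors were called over all strains, 1 in HXB/BXH and 0, in place of 1, in FXLE/LEXF, where 48.9%, 23.7% and 4.82% of all genes were. Hypertensive strains had a median score of -0.278 and the others of -0.00177.

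**Figure D5:**
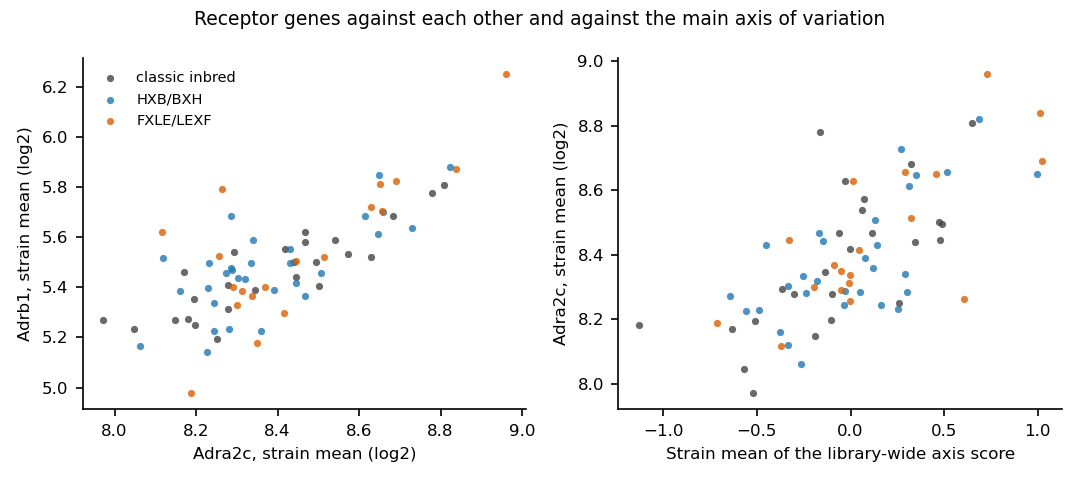
Left, strain means of Adrb1 against Adra2c (log2, 74 strains, coloured by panel); right, strain means of Adra2c against the strain mean of the score on the main axis of variation among animals of 1 strain. Both clouds rise from lower left to upper right (rho 0.69 and 0.70), with LEXF5/Stm at the top in each.

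The genes with the most similar pattern over strains, by absolute Spearman's rho over 74 strain means, were mostly not adrenergic. They were Egln2 (0.88), Psd (0.87), Lrfn4 (0.86), Enho (0.85) and Dohh (0.85) for Adra2c, and Ier5l (0.84), Fam171a2 (0.82), Fbll1 (0.81), Map1s (0.80) and Neurl1b (0.79) for Adrb1. For Adra1b they were Tmem259 (0.84), Lrfn1 (0.83), Atp13a2 (0.83), Chpf (0.83) and Slc27a4 (0.83), and for Adra1d Edc4 (0.79), Cacna1i (0.79), Rin1 (0.78), Clstn1 (0.77) and Cpt1c (0.77). Such closeness was common: 396 genes passed 0.7 with Adra2c, 341 with Adra1b, 83 with Adrb1 and 80 with Adra1d.

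The remaining receptors had fewer close genes. Adra2a was nearest to Adar (0.70), Clstn1 (0.69), Rusc1 (0.68), Mboat7 (0.67) and Sez6l2 (0.67). Adra2b was nearest to Mtif2 (-0.59), Pigf (-0.57), Fahd2a (0.57), Dut (-0.54) and Mix23 (-0.54). Fahd2a, a hydrolase family gene, was also the closest neighbour of Adra2b within 5 Mb, at 74.5 kb between centres (Adra2b is at chr3:119805941-119809987 on the plus strand of rn6). Adra1a was nearest to Nhsl2 (0.56), Ncoa6 (0.53), Helz (0.53), Nav1 (0.50) and Cpeb3 (0.50).

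For the other receptors the neighbours named are the 3 closest of 34 to 114. Over all neighbours the median absolute rho was 0.39 for Adra2c, 0.34 for Adra1b, 0.24 for Adrb1, 0.22 for Adra1d, 0.18 for Adra2a and 0.17 for Adra2b. Of all genes, 14.4%, 16.4%, 8.08%, 14.2%, 2.93% and 0.144% passed an absolute rho of 0.5 with these receptors, in the same order. Whether neighbours followed them more closely than other genes was not tested. Within 5 Mb of Adra1b the closest were Ttc1 (-0.61), whose centre is 0.228 kb from that of Adra1b, Pwwp2a (-0.61) and Ublcp1 (-0.56). For Adra1d they were Usp8 (-0.72), Tmx4 (-0.68) and Ap4e1 (-0.67), for Adra2a Ccdc186 (-0.48), Smc3 (-0.47) and Rbm20 (0.44), and for Adra2b, after Fahd2a, Dut (-0.54) and Kcnip3 (0.42). Adra2c had Slc35e4 (0.79), RGD1560394 (0.77) and LOC100361879 (0.76), and Adrb1 had Grk5 (-0.50), Shoc2 (-0.48) and Zdhhc6 (-0.48). Grk5 encodes a kinase that desensitises G protein-coupled receptors and is also on the list of partners below.

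A list of 48 partner genes, covering noradrenaline synthesis and transport, G proteins, effectors and regulators, was measured in full, and 18 of the 48 (37.5%) had a strain effect against 37.3% of all genes. Among the 9 genes that make, store or remove noradrenaline 4 passed: Ddc (R2 0.634), Slc6a2, the noradrenaline transporter (0.539), Dbh, which makes noradrenaline from dopamine (0.533), and Slc18a2, the vesicular transporter (0.488). Of the 9 G protein subunits 2 passed, Gnal (0.555) and Gnao1 (0.494). Of the 19 effectors 8 passed, led by Kcnj3 (0.548) and Kcnj6 (0.545), subunits of the potassium channel that α2 receptors open. Of the 11 regulators 4 passed: Rgs4 (0.576), Arrb1 (0.531), Rgs2 (0.518) and Akap12 (0.515).

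Within the families 7 of 48 partners (14.6%, against 19.1% of all genes) passed in HXB/BXH, namely Ddc, Dbh, Slc6a2, Gnal, Plcb2, Kcnj6 and Rgs2. In FXLE/LEXF 1 of 48 (2.08%, against 4.61% of all genes) passed: Rgs4, which shortens Gq and Gi signals (R2 0.758, adjusted p = 0.0295, limma). None passed between hypertensive and other strains. The lowest unadjusted p was that of Slc18a2, 0.432 higher in hypertensive strains (SE 0.132, unadjusted p = 0.00303, adjusted p = 0.529, limma). The locus coeruleus marker list, which holds Dbh, Slc6a2 and Th, had a median of 4.43 in hypertensive and 4.33 in other strains.

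Other tissues could contribute transcripts of these receptors. The list of smooth muscle and pericyte markers, cells known for α1 receptors, had rho 0.42 with Adra1b, 0.32 with Adra1d and -0.09 with Adra1a over strain means. The other receptors followed this list as well, with rho 0.27 for Adra2b, 0.26 for Adra2a, 0.26 for Adra2c and 0.21 for Adrb1. The meningeal list had rho 0.48 with Adra2a and 0.35 with Adra1d. How many of all genes follow these lists was not counted. The pineal list, from a gland known for β1 receptors, had rho 0.04 with Adrb1 and strain levels between 3.26 and 4.52. In hypertensive strains the smooth muscle list had a median of 9.16 and in the others of 9.17. The meningeal list had 9.62 (9.50 to 9.85) and 9.50 (9.27 to 9.92), with all 5 markers higher in hypertensive strains, 1 of them at an unadjusted p under 0.05. The part of these lists in any result was not tested.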

How the data were processed

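Total RNA was sequenced from whole brain of 74 inbred rat strains. In the study's methods, given for an earlier release of the data, the authors trimmed reads with Cutadapt, removed ribosomal reads with Bowtie2, aligned to strain-specific genomes with HISAT2, reconstructed transcripts with StringTie, estimated counts with RSEM, removed 1 unwanted factor and applied DESeq2's regularized log. The deposited values are on a log2 scale per the file headers and the values themselves. The submitters' processing notes name the build rn6 (Rnor_6.0) and HISAT2 2.1.0 and 2.2.1, StringTie 1.3.5 and 2.2.1 and RSEM 1.3.1 and 1.3.3, without tying them to a release. Which of them, and which build, made the release used here (RefSeq genes, version 7.1), and the step that levelled its batches, are not given in the sources used here. The printed positions of Adra1a and Adra2b are those of the version 5 reconstruction, on rn6. Neighbours within 5 Mb and distances between gene centres were taken from the version 7.1 reconstruction, whose build is not given. Spike-in rows were left out.

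Libraries of 1 strain and replicate number were averaged to 1 animal. Strain effects, pairs of strains and hypertensive against other strains were tested with limma 3.58.1 in R 4.3.3, with Benjamini-Hochberg adjustment over all genes at 0.05, plus an exact two-sided permutation test over strains for single genes. Fits with batch ran over libraries, each weighted by the inverse of its animal's number of libraries. Clusters were fitted with mclust 6.1.1 (1 to 3 clusters, equal variance, BIC). The scripts were tested on simulated data. Named besides the receptors were the 5 genes closest by absolute Spearman correlation of strain means and the 3 closest within 5 Mb. The genes, lists and tests were chosen with earlier results of these data known. The alternatives were batch, replicate block, filter, other tables, left-out replicates, strains or libraries. The labels do not say that replicates were raised apart, so p-values measure the spread between these animals. Replicate numbers did not pair the animals: deviations of animals with the same number correlated with a mean r of 0.013 and those with other numbers with -0.0063, and 32.9% of 5927 same-number pairs passed 0.1.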

Additional observations from a re-analysis of the deposited data

Results flagged for a closer look

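Of 14 sets of 4 to 10 values checked for a value far from the rest, 1 had one, and about 5% of such sets would by chance. Among the 6 libraries of SHR/OlaIpcv animal 4, Adra2b read 6.756 in 1 library and between 6.351 and 6.43 in the other 5, a gap of 0.805 of the whole range. Adra2b in SHR/OlaIpcv is the mean of this animal and of animal 1, which read 6.73.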

How the results depend on the processing

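The replicate block (replicate number as a factor) called 4 receptors over all strains (38.3% of all genes), 1 in HXB/BXH (19.1%), 1 in FXLE/LEXF (4.32%) and 0 in every pair, as without it. It turned the signs of Adra2c in BN-Lx/Cub minus SHR/OlaIpcv, to 0.084, and of Adra1b in F344/Stm minus LE/Stm, to 0.0116. Over all strains 4 of the 7 receptors were called in the reported analysis. Leaving out a replicate number gave 0 to 2 (1, 0 and 2 without numbers 1, 2 and 3). The strains with doubtful libraries left out gave 4 (37.5% of all genes). Batch as a covariate gave 6 over libraries (Adra1b and Adrb1 too, 72.9% of genes) and 4 over the first library of each animal (55.6%). Ensembl genes of version 6 gave 1 (Adra1d, where 32.3% of genes passed). The most abundant matched RefSeq transcript of each gene gave 0 (13.9% of transcripts). In HXB/BXH, 1 in the reported analysis, batch as a covariate gave 4 in either form, reconstructed genes 2 (Adra1d and Adra2c) and each left-out replicate number 0 (8.04% to 9.31% of genes, against 19.1%). In FXLE/LEXF, 1 in the reported analysis, left-out replicate numbers gave 0 to 1 (0.288% to 6.52% of genes), LEXF5/Stm left out 0 (4.51%), the main axis as a covariate 0 and reconstructed genes 2 (Adra1a and Adrb1, not Adra2c). In BN-Lx/Cub minus SHR/OlaIpcv reconstructed genes gave 1 in place of 0. Fits with a replicate number left out have fewer animals; the cause of the other changes was not tested.

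No receptor was called between hypertensive and other strains or in the pairs, also without any 1 hypertensive strain, the strains with doubtful libraries, or 1 animal of a pair; single comparison strains were not left out. Some uncalled differences turned sign. For hypertensive minus other strains, Adra1b was 0.0035 with batch adjusted, 0.0064 without LH/MavRrrc and 0.023 with the main axis, which also put Adra1d at 0.0024. Adra2b was -0.013 without FHH/EurMcwi, -0.019 without SS/JrHsd, from -0.0267 to 0.0076 without 1 replicate number (negative without 2 and 3, at -0.0013 and -0.0267) and -0.0304 in reconstructed genes, which put Adra2a at -0.071. In SHR/OlaIpcv minus WKY/NCrl, Adra2a was -0.025 with batch. In SHRSP/A3NCrl minus WKY/NCrl, Adrb1 was -0.697 without SHRSP/A3NCrl replicate 2 and 0.0766 without replicate 3. In BN-Lx/Cub minus SHR/OlaIpcv, Adra2c was from -0.0754 to 0.0361 without 1 BN-Lx/Cub animal and 0.015 without SHR/OlaIpcv replicate 1, 0.72 in reconstructed genes and 0.24 in version 5; Adra1a was from -0.0122 to 0.21 without 1 BN-Lx/Cub animal and Adra1d 0.014 in reconstructed genes. In F344/Stm minus LE/Stm, version 5 gave -0.24 for Adra1a and 0.059 for Adra1d. Other receptors' pair and progenitor differences turned sign in 18 of 88 and 14 of 64 recomputed values, none past the threshold. Depth is unknown, so a limit from counting error cannot be given. The main axis, transcripts, batch over first libraries, LEXF5/Stm, the fits of Adra1a clusters without single strains and reconstructed genes within families were alternatives chosen after seeing the data.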

Other observations

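Levels of Adra1a and Adrb1 depended on the gene model in which reads were counted. Adra1a had a mean of 10.35 in the main reconstructed feature, 8.37 in the Ensembl genes of version 6 and 7.88 in those of version 5, each release being scaled on its own. Over the strains in common, its strain means had a Spearman's rho with the RefSeq gene of 0.87 (74 strains), 0.63 (58 strains) and 0.31 (45 strains), with many libraries shared. Adrb1 had a mean of 8.24 in version 6 and 5.31 in version 5, with rho 0.46 and 0.28. For Adra1d and Adra2c the version 6 genes had rho 0.96 and 0.98 and the version 5 genes 0.73 and 0.71.

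The RefSeq transcripts matched to Adra1a varied more than the gene. XM_006252107.4 ran from 7.15 through 9.08 to 10.14 over 74 strain means (R2 0.489, adjusted p = 0.0579, limma over all transcripts) and XM_006252110.4 from 2.64 through 7.47 to 9.10 (R2 0.373, adjusted p = 0.646), while the gene spanned only 0.60. None of the most abundant matched transcripts of the 7 receptors passed, where 13.9% of transcripts did.

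On the reconstructed feature MWF/Hsd had the lowest Adra1a of the classic strains, with a mean of 9.78 and animals 2 and 3 at 9.90 and 9.66, animal 1 not being in that table, next to LE/Stm at 9.81 and below WKY/NCrl at 10.16. MWF/Hsd was picked here after its values were seen.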
